A study of Homo sapiens with 6 samples.

Results

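The stretches described here were in the lamin B1 domain lists of both replicates but in the LC3 domain list of exactly 1 replicate, so lamin B1 was firm and LC3 was not. They were chosen by the positions in the 4 deposited lists, taking each unbroken run of bases in both lamin B1 lists and in 1 of the 2 LC3 lists. The rule gave 334 stretches over 138 Mb, out of 3253 stretches into which the 4 lists divide the genome outside domain-free sequence. They made up 10.6% of the 1305 Mb of firm lamin B1 sequence, that is, sequence in both lamin B1 lists. The other firm lamin B1 sequence was in both LC3 lists (79.7%) or in neither (9.68%). No stretch changed from one LC3 replicate to the other along its length, so each had a single holder, the LC3 replicate whose list contained it.

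Lamin B1 is an intermediate filament protein of the nuclear lamina, the meshwork under the inner nuclear membrane. Chromatin that lies against it forms lamina-associated domains, which are long, late-replicating and mostly poor in active genes. LC3 belongs to the ATG8 family: its lipidated form decorates autophagosome membranes and recruits cargo, and a nuclear pool of LC3 has been reported to bind lamin B1. Firm lamin B1 sequence in a single LC3 list marks where the LC3 map of lamina-associated chromatin differed between repeats of the experiment.

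The data are ChIP-seq domain lists from the human lung fibroblast line IMR90, cultured at 3% oxygen with no treatment. The groups used were Lamin B1 and LC3, with 2 replicates each, precipitated from formaldehyde-crosslinked, sonicated chromatin. All samples come from 1 cell line, input samples were not analysed here, and the labels do not say whether replicates were separate cultures. The lists hold positions alone, so read depth is unknown, the cell type could not be checked against markers, and a base missing from a list is not shown to lack the protein. LC3 replicate 1 held 437 domains over 1403 Mb and LC3 replicate 2 held 475 over 1484 Mb. Each value below compares 1 LC3 list with 1 other and was fixed in part by the rule, so no SD can be given and no test was made. Positions are in GRCh37/hg19. Genes and sequence in the stretches were not analysed here.

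Most of the discordant sequence was held by LC3 replicate 2. It held 208 stretches over 110.2 Mb, or 79.7% of the length, and LC3 replicate 1 held 126 stretches over 28.0 Mb. The ratio in length was 3.93. On the autosomes alone it was 2.96, with 79.4 Mb against 26.8 Mb. Replicate 2 thus led with and without chromosome X. The stretches of replicate 2 had a median length of 119 kb (interquartile range 3 to 606 kb) and those of replicate 1 a median of 46 kb (8 to 199.5 kb). Replicate 2 held the longest stretch, of 6.75 Mb, and the longest of replicate 1 was 2.05 Mb.

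Length was spread very unevenly over the stretches. Of the 334, 91 were at most 5 kb long and together covered 0.20 Mb, or 0.145% of the length. Domain ends in the lists fall on a grid of 5 kb in LC3 replicate 1 and 3 kb in LC3 replicate 2, and for 62 of these 91 stretches the whole LC3 difference was at most 5 kb. The other 29 were the small part, inside firm lamin B1 sequence, of a longer LC3 difference. A further 87 stretches of over 5 to 100 kb added 3.18 Mb. At the other end, 44 stretches of at least 1 Mb held 89.4 Mb (64.7%), and 34 of these 44 were held by replicate 2. The 25 longest stretches carried 47.8% of the length and the 5 longest 15.6%. Above 2 Mb there were 15 stretches held by replicate 2 and 1 held by replicate 1.

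**Figure D1:**
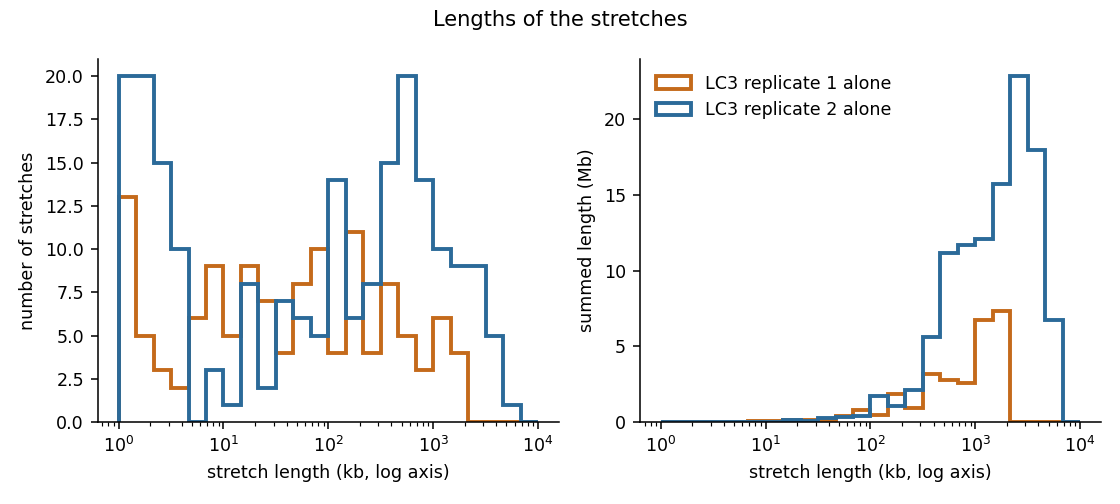
Lengths of the 334 stretches on a log axis, as the number of stretches (left) and the summed length in Mb (right) per length class, for LC3 replicate 1 alone and LC3 replicate 2 alone. Many stretches were at most 5 kb (91 of 334), but nearly all length lay in long ones, and 44 stretches of at least 1 Mb held 89.4 Mb.

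The LC3 difference took 3 forms, told apart by the LC3 lists on the 2 sides of the discordant sequence. Where neither LC3 list continued on either side, a whole LC3 domain was present in 1 list and absent from the other. With both LC3 lists continuing on 1 side, the domain was in both lists and its edge was shifted. Sequence with both LC3 lists on both sides was a gap between domains of one list that the other list bridged. Whole domains gave 65 stretches and 59.1 Mb (42.8%), shifted edges 249 stretches and 57.8 Mb (41.8%), and bridged gaps 20 stretches and 21.3 Mb (15.4%). By number of stretches the edges made up 74.6%, but their median length was 20 kb, against 621 kb for whole domains and 945.5 kb for bridged gaps. Whole domains and shifted edges thus carried similar lengths, and bridged gaps less.

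**Figure D2:**
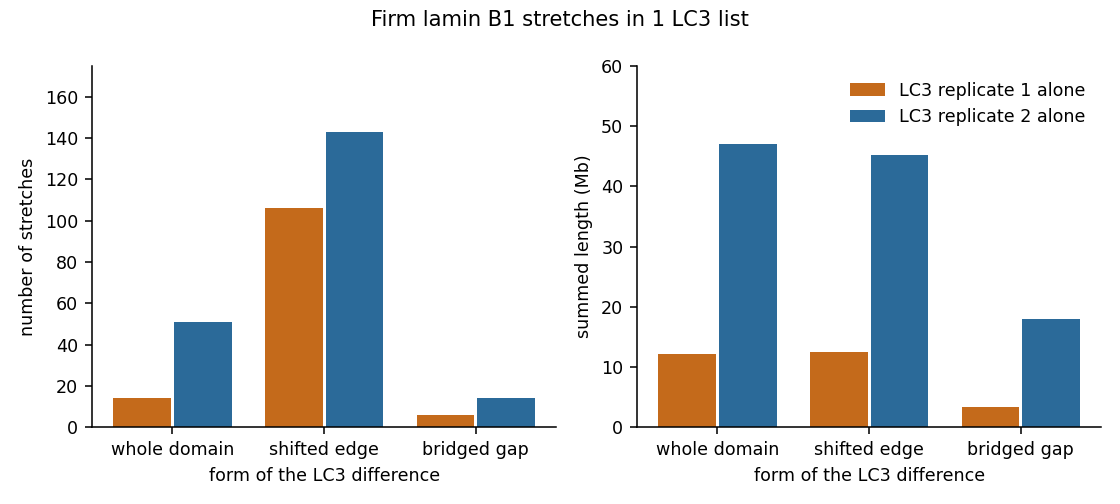
Number (left) and summed length in Mb (right) of the stretches by the form of the LC3 difference, with a bar for each LC3 replicate that held them. LC3 replicate 2 had the higher bar in each form, by 51 to 14 stretches for whole domains, 143 to 106 for shifted edges and 14 to 6 for bridged gaps. Its lead in number for shifted edges lay in stretches of at most 5 kb.

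The forms had similar shares in both holders. Whole domains made up 43.3% of the length held by replicate 1 and 42.7% of that held by replicate 2. Shifted edges made up 44.8% and 41.0%, and bridged gaps 11.9% and 16.3%. The lead of replicate 2 was thus present in each form, at 47.0 against 12.1 Mb for whole domains, 45.2 against 12.6 Mb for edges and 17.9 against 3.34 Mb for gaps.

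Whole LC3 domains of 1 list were more numerous in replicate 2. Of its 475 LC3 domains, 78 (16.4%) shared no base with replicate 1, and 50 of these 78 touched firm lamin B1 sequence. Of the 437 domains of replicate 1, 27 (6.18%) shared no base with replicate 2, and 14 of these 27 touched it. Firm lamin B1 sequence took up 65.8% of the 71.5 Mb in such domains of replicate 2 and 44.7% of the 27.1 Mb in those of replicate 1. It took up a larger part of the sequence in both LC3 lists. Of that sequence 1040 Mb was in both lamin B1 lists, 95.9 Mb in 1 and 180 Mb in none. These domains were shorter than the lists as a whole, with medians of 613.5 kb against 1407 kb in replicate 2 and 990 kb against 1695 kb in replicate 1.

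The 64 LC3 domains behind the whole-domain stretches were kept because they touched firm lamin B1 sequence, so some overlap with lamin B1 domains was built in. The same measures were not taken for LC3 domains present in both LC3 lists. In 44 of the 64, at least 50% of the LC3 domain lay in firm lamin B1 sequence and at least 50% of the firm lamin B1 domain was covered in return. In 19 the lamin B1 domain was covered in full, and 24 LC3 domains lay entirely inside firm lamin B1 sequence. Both ends of the LC3 domain lay within 100 kb of the ends of the lamin B1 domain in 18 of 50 domains of replicate 2 and in 1 of 14 of replicate 1. For 31 of all 64, 1 end did, and for 14 neither did. These LC3 domains thus often spanned much of 1 lamin B1 domain in one LC3 list and none of it in the other.

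The longest whole-domain stretches were on chromosomes X and 10. LC3 replicate 2 listed a single domain on chromosome X from 80355001 to 95442000, 15.1 Mb long, that shared no base with replicate 1. Lamin B1 replicate 2 covered this region with 1 domain from 77424001 to 95612000, and lamin B1 replicate 1 broke it up. The LC3 domain therefore gave 2 stretches, from 80766001 to 87513000 (6.75 Mb, the longest of the 334) and from 91932001 to 95442000 (3.51 Mb). The neighbouring LC3 domains of replicate 1 ended 11901 kb before the first of these and began 1528 kb after the second. On chromosome 10 a stretch of 3.09 Mb ran from 82650001 to 85737000. It lay inside a lamin B1 domain for which both lamin B1 lists gave the same limits, 82368001 and 88140000, and the nearest LC3 domains of replicate 1 stopped 925 kb before it and began 673 kb after it.

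**Figure D3:**
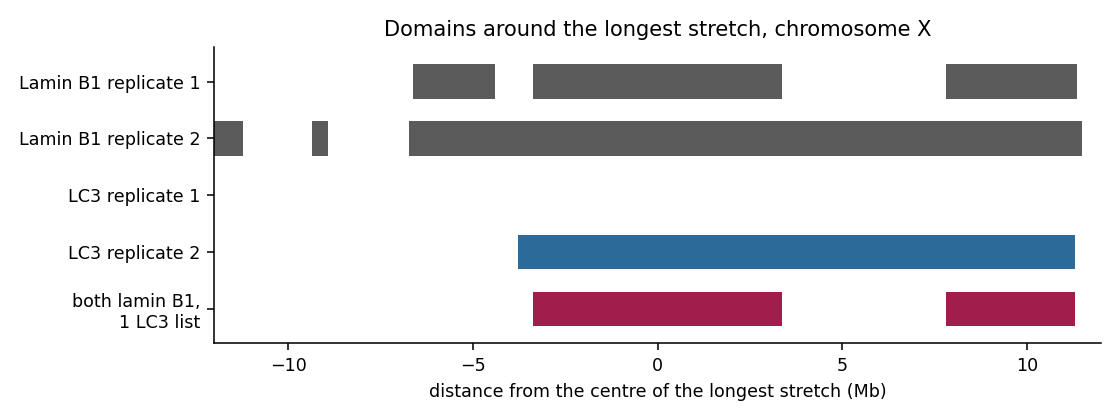
Domains of the 4 lists, and the stretches in both lamin B1 lists and 1 LC3 list, within 12 Mb of the centre of the longest stretch, on chromosome X. The x axis is distance in Mb, each bar is a domain, and LC3 replicate 1 has no domain in this window while LC3 replicate 2 has one of 15.1 Mb.

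The whole domains held by replicate 1 were fewer, with 14 stretches. The longest stretches of this kind were on chromosome 8 (183001 to 2100000, 1.92 Mb), chromosome 1 (4225001 to 6016000, 1.79 Mb), chromosome 10 (1146001 to 2230000, 1.08 Mb) and chromosome 14 (106185001 to 107255000, 1.07 Mb). The stretch on chromosome 1 took up 88.8% of its firm lamin B1 domain and that on chromosome 14 took up 87.4%. On chromosome 8 the stretch was 33.5% of a domain of 5.72 Mb, whose remainder was in neither LC3 list, and the next LC3 domain of replicate 2 began 5004 kb further on.

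Edges shifted in both directions, and the longest stretches of this form inside firm lamin B1 sequence favoured replicate 2. The 249 stretches of this form came from 247 LC3 edges, of which LC3 replicate 2 reached farther at 141 and LC3 replicate 1 at 106. Inside firm lamin B1 sequence, 106 stretches were at most 10 kb long, 69 were over 10 to 100 kb and 74 were over 100 kb, and the last group held 94.3% of the length. Of these 74, replicate 2 held 48 and replicate 1 held 26. At 500 kb or more the counts were 22 and 4, and at 1 Mb or more 15 and 2. Up to 5 kb replicate 2 held 63 and replicate 1 held 26, over 5 to 10 kb 3 and 14, and over 10 to 100 kb 29 and 40. Replicate 1 thus led between 5 and 100 kb, and replicate 2 below and above. Above 5 kb the replicates held equal numbers, so the lead of replicate 2 in number lay in stretches of at most 5 kb. That is no more than 1 step of the 5 kb grid of LC3 replicate 1.

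Of the 249 stretches, 121 ended on their outer side where LC3 stopped inside firm lamin B1 sequence, and 128 where the firm lamin B1 sequence ended. Among those over 100 kb the numbers were 41 and 33. A stretch can therefore be shorter than the LC3 shift it belongs to. Whole LC3 shifts had medians of 49.5 kb where replicate 1 reached farther and 42 kb where replicate 2 did. The median stretch was 22 kb where replicate 1 reached farther and 18 kb where replicate 2 did, and the 90th percentiles were 355 and 988 kb. The longest shifted edge was on chromosome X from 32810001 to 37083000, 4.27 Mb long. LC3 of replicate 2 went on there to within 6 kb of the end of a firm lamin B1 domain, and LC3 of replicate 1 stopped 4.27 Mb earlier. Next came chromosome X (143565001 to 147125000, 3.56 Mb), where the LC3 domain of replicate 2 and the firm lamin B1 domain began 5 kb apart, and chromosome 5 (27255001 to 30475000, 3.22 Mb). For replicate 1 the longest was on chromosome 5 (1776001 to 3822000, 2.05 Mb), near the start of an LC3 domain of 16.5 Mb. Its next was on chromosome 10 (131778001 to 133245000, 1.47 Mb), where LC3 of replicate 1 stopped 135 kb before the firm lamin B1 domain did.

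Bridged gaps were the rarest form, with the highest median length. LC3 replicate 2 bridged 12 gaps that held firm lamin B1 sequence, by 12 domains with a median length of 10.4 Mb, and LC3 replicate 1 bridged 4, by 4 domains with a median of 6.75 Mb. Only 5 of the 12 gaps and 1 of the 4 were firm lamin B1 sequence throughout, so a stretch can be shorter than its gap. In each of the 12 gaps but 1, the domain of replicate 2 ran over 2 domains of replicate 1. The exception, on chromosome 9, ran over 4 and contributed a stretch of 1 kb. The longest stretches of this form were on chromosome 4 (160404001 to 163810000, 3.41 Mb), chromosome 14 (42935001 to 45820000, 2.885 Mb) and chromosome 13 (80645001 to 83180000, 2.535 Mb). The last lay inside an LC3 domain of replicate 2 that was 33.2 Mb long. On chromosome 4, 6 stretches in bridged gaps amounted to 7.73 Mb of the 9.89 Mb found there. Replicate 1 bridged its longest such gap on chromosome 7, with a stretch from 51584001 to 53175000 (1.59 Mb), and another on chromosome 8 with a stretch of 1.09 Mb from 138987001 to 140073000.

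Seen from the lamin B1 side, the discordance touched many firm lamin B1 domains and filled few. Of 597 firm domains, 266 (44.6%) contained at least 1 stretch, 65 (10.9%) were discordant over at least 50% of their length and 22 entirely. For the 266, a stretch of any length counted, down to 1 kb, and 108 of the 334 stretches were at most 10 kb. Of the 65, 51 had at least 50% of their length in the LC3 list of replicate 2 and not of replicate 1, and 14 the other way round. Of the 22, replicate 2 held 16 and replicate 1 held 6. In 28 domains both replicates held a stretch of their own. The most stretches in a single domain were 6.

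Short lamin B1 domains were more often discordant over most of their length, whereas long ones more often contained some discordance. Among 100 firm domains under 0.5 Mb, 17 were at least 50% discordant and 13 entirely. From 0.5 to under 1 Mb it was 19 of 168 (11.3%), from 1 to under 2 Mb 16 of 149 (10.7%), from 2 to under 5 Mb 7 of 117 (5.98%) and at 5 Mb or more 6 of 63 (9.52%). The share with any stretch, however short, went from 32.0% under 0.5 Mb to 52.4% at 5 Mb or more. Measured by length, the discordant part was 14.9% of the shortest class and between 9.86% and 12.3% of the others. A stretch of a given length takes up more of a short domain than of a long one, and how far this sets the counts was not tested.

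Discordant sequence lay nearer to lamin B1 domain edges than sequence in all 4 lists and farther from them than sequence without LC3. The median distance from a base to the nearest edge of its firm lamin B1 domain was 602 kb for discordant sequence, 887 kb for sequence in all 4 lists and 325 kb for firm lamin B1 sequence in neither LC3 list. By holder the medians were 368 kb (LC3 replicate 1) and 725 kb (LC3 replicate 2). Within 100 kb of an edge lay 18.8% of the sequence held by replicate 1 and 10.4% of that held by replicate 2. Long domains have more sequence far from an edge, and the part of domain length in these medians was not tested.

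The neighbours of a stretch were as a rule also lamin B1 sequence. Of the 334 stretches, 263 touched sequence in all 4 lists on at least 1 side and 167 touched firm lamin B1 sequence with no LC3. Sequence in 1 lamin B1 list, where the lamin B1 replicates themselves differed, was touched by 168 (50.3%). The most frequent pair of neighbours by length was all 4 lists on one side and lamin B1 without LC3 on the other, with 118 stretches and 33.0 Mb. In these stretches both LC3 lists ended inside the same lamin B1 domain, at different places. By number the most frequent pair was all 4 lists and 1 lamin B1 list, with 119 stretches and 29.5 Mb. A further 14 stretches (15.8 Mb) had lamin B1 without LC3 on both sides, 20 (15.3 Mb) had 1 lamin B1 list on both sides, and 6 (9.35 Mb) had all 4 lists on both sides.

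Chromosome X carried the largest amount and the largest share of discordant sequence. It held 43 stretches over 32.0 Mb, or 23.1% of the total, and 40.9% of its 78.2 Mb of firm lamin B1 sequence was discordant, more than was in both LC3 lists (35.7%). On the autosomes the discordant share had a pooled value of 8.66%, with a lowest of 4.24%, a median of 8.53% and a highest of 28.2%. On X, LC3 replicate 2 held 30.8 Mb and LC3 replicate 1 held 1.21 Mb. The LC3 lists there had 32 domains over 66.6 Mb in replicate 2 and 23 over 31.7 Mb in replicate 1, while the lamin B1 lists had 85.9 and 91.5 Mb. Thus 58.7 Mb of the firm lamin B1 sequence on X was in the LC3 list of replicate 2 and 29.1 Mb in that of replicate 1.

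The forms on X were whole domains and shifted edges, with no bridged gap. Replicate 2 held 8 whole-domain stretches over 15.6 Mb and 18 stretches at shifted edges over 15.2 Mb. Replicate 1 held 1 and 16, over 0.161 and 1.05 Mb. For replicate 2, a single LC3 domain, from 80355001 to 95442000, gave 2 of the 8 whole-domain stretches, 6.75 and 3.51 Mb long. The whole-domain length on X thus rested largely on that domain. The edges held by replicate 2 had a median of 186 kb on X and 17 kb on the autosomes, and its whole-domain stretches medians of 957 and 586 kb. Of the 37 firm lamin B1 domains on X, 10 were at least 50% discordant and 1 entirely. This was not particular to X, since on chromosome 9 it was 8 of 25, with 5 entirely. The 4 longest of the 334 stretches were all on X.

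After X, the highest discordant shares of firm lamin B1 sequence were found on chromosomes 19 (28.2%), 17 (26.2%), 10 (19.7%) and 21 (17.8%). On chromosomes 19 and 17 these shares rested on 1 long stretch each. Chromosome 19 had a single stretch of 0.842 Mb held by replicate 1, from 30710001 to 31552000, in 2.99 Mb of firm lamin B1 sequence. Chromosome 17 had 6.91 Mb of such sequence and a stretch of 1.80 Mb held by replicate 2, from 51135001 to 52936000. This stretch lay in a bridged gap of 2565 kb. Chromosome 10 had 23 stretches, with 7.50 Mb held by replicate 2 and 3.07 Mb by replicate 1. Chromosome 21 had 4 stretches over 2.28 Mb, of which 1.49 Mb was an LC3 domain of replicate 2 from 19389001 to 20883000. The lowest shares were on chromosomes 20 (4.24%), 3 (4.50%), 18 (4.72%), 2 (5.26%) and 22 (5.50%).

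LC3 replicate 2 held more than LC3 replicate 1 on 17 of 23 chromosomes, and replicate 1 held more on chromosomes 7, 8, 16, 19, 20 and 22. On chromosome 8 replicate 1 held 5.31 Mb and replicate 2 held 1.69 Mb. On chromosome 20 the values were 1.15 Mb and 0.006 Mb. Chromosomes 19 and 22 had no stretch held by replicate 2. On chromosomes 6, 3 and 17, in contrast, replicate 1 held 0.057, 0.118 and 0.005 Mb and replicate 2 held 6.79, 4.87 and 1.80 Mb.

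**Figure D4:**
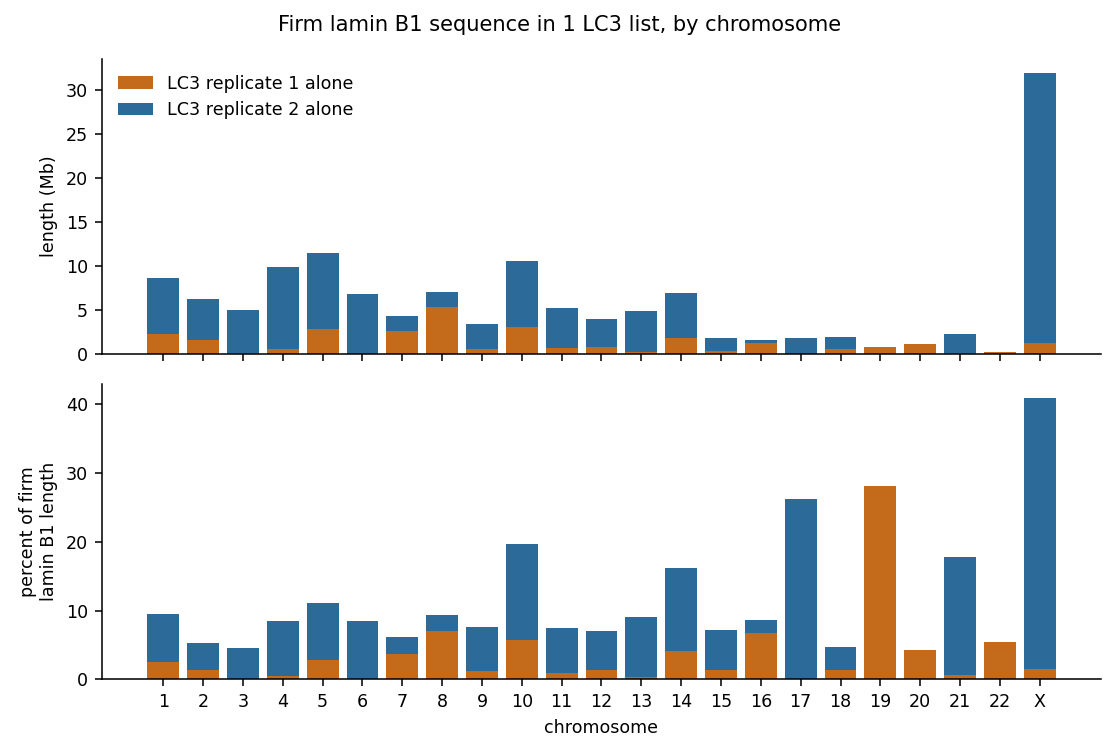
Discordant firm lamin B1 sequence on each chromosome, in Mb (top) and as a percent of the firm lamin B1 length of that chromosome (bottom), with the bar divided by the LC3 replicate that held it. Chromosome X stands highest in both panels (32.0 Mb and 40.9%), and its bar is almost wholly LC3 replicate 2.

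The holder also differed by position along the chromosome, a pattern looked for after the longest stretches of replicate 1 had been seen. Ends were taken as the first 5 Mb of a chromosome and the last 5 Mb before the last base of any domain, because chromosome lengths were not used here. Of the 28.0 Mb held by LC3 replicate 1, 14.6 Mb (52.2%) lay there, against 3.80 Mb (3.45%) of the 110.2 Mb held by LC3 replicate 2. Of all firm lamin B1 sequence 6.04% lay there, of sequence in all 4 lists 4.11% and of firm lamin B1 sequence in neither LC3 list 13.9%. The difference between the LC3 replicates was also present outside lamin B1 domains, where 25.2% of the sequence in LC3 replicate 1 alone and 2.72% of that in replicate 2 alone lay near an end. Near the ends replicate 1 thus held 3.84 times as much as replicate 2, and elsewhere replicate 2 held 106.4 Mb and replicate 1 held 13.4 Mb, a ratio of 7.94.

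Many chromosomes shared this pattern. Near the ends replicate 1 held more than replicate 2 on 16 chromosomes and less on 3, and 4 chromosomes had no discordant sequence there. Of the 45 stretches of at least 100 kb held by replicate 1, 18 had their centre near an end, on 15 chromosomes. Of the 111 such stretches held by replicate 2, 5 did, on 4 chromosomes. Near ends LC3 replicate 1 listed 83.7 Mb in all and LC3 replicate 2 listed 59.6 Mb, and the lamin B1 lists had 90.9 and 81.7 Mb. With ends of 2 Mb the shares held by replicates 1 and 2 were 25.8% and 2.72%, and with ends of 10 Mb they were 65.7% and 7.96%.

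**Figure D5:**
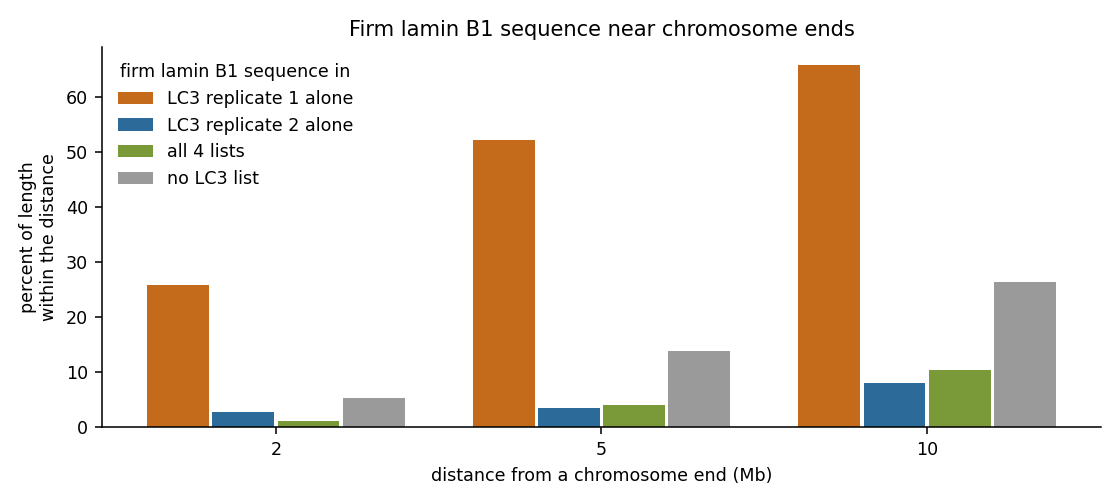
Percent of firm lamin B1 length that lay within 2, 5 or 10 Mb of a chromosome end, for sequence in LC3 replicate 1 alone, in LC3 replicate 2 alone, in all 4 lists and in no LC3 list. At 5 Mb the bar for LC3 replicate 1 alone stands at 52.2%, and those for LC3 replicate 2 alone and all 4 lists at 3.45% and 4.11%.

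The LC3 lists differed over 255.6 Mb in all, and firm lamin B1 sequence held 54.1% of that. A further 13.3% was in 1 lamin B1 list and 32.6% in none. Relative to the LC3 sequence present, discordance was lowest in firm lamin B1 sequence: 11.7% of the bases in either LC3 list were in 1 list alone, against 26.2% where 1 lamin B1 list was present and 31.7% where none was. On the autosomes these shares were 9.49%, 21.9% and 31.5%. The lead of LC3 replicate 2 was not seen outside firm lamin B1 sequence on the autosomes. There the ratio of replicate 2 to replicate 1 was 2.96 in both lamin B1 lists, 0.943 in 1 and 0.874 in none. Position also differed in sequence of no lamin B1 list. Over all chromosomes, 11.2 of the 44.4 Mb in replicate 1 alone lay within 5 Mb of a chromosome end. For replicate 2 alone it was 1.06 of 38.9 Mb. The part of chromosome ends in these ratios was not tested.

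The order of the replicates was reversed for shifted edges. In sequence of no lamin B1 list, LC3 replicate 1 held 319 stretches of this form (29.0 Mb) and LC3 replicate 2 held 142 (11.6 Mb), against 12.6 and 45.2 Mb in firm lamin B1 sequence. Whole domains and bridged gaps were longer in sum for replicate 2 in both settings, at 12.7 against 10.5 Mb and 14.6 against 4.92 Mb outside lamin B1 domains. Because all of these values come from the same 2 LC3 lists, they describe those lists and not the conditions of the cells.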

How the data were processed

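Lamin B1 and LC3 ChIP-seq domain lists of 4 samples were used, 2 replicates for each antibody. The authors deposited each list as chromosome, start and end of domains called in 1 replicate. The file names refer to EDD, a caller of broad domains; which version, settings, input and read filters went into it is not given in the sources used here. The tools named are Bowtie2, bedtools and bcl2fastq 2.16.0.10, with GRCh37/hg19, per the submitters' processing notes. The deposited lists hold no counts, signal or scores, so depth and counting error are unknown, and a broad-domain caller can bridge or omit weak stretches.

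Lists were handled in 1 kb steps with Python 3.11.15, NumPy 2.4.6 and pandas 2.3.3. Positions are 1-based. The code for holder and form was run on simulated lists, where 100% of 505 planted stretches were recovered. The planted forms followed the same definitions and lay wholly inside lamin B1 domains. This checks the code alone, and stretches cut by a lamin B1 edge were not simulated. No p-value was computed, since the rule used all 4 lists. The members, lists and measures were chosen with earlier results of these data known. Regions named in the text are the 8 longest per LC3 replicate, the 3 longest per form, and the chromosomes with the 5 highest and 5 lowest discordant shares, with others named where a count or contrast turned on them. Alternatives changed the minimum length, the lamin B1 lists, the LC3 lists, the chromosomes and the assignment of forms. Genes per Mb and GC content were planned but not analysed here.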

Additional observations from a re-analysis of the deposited data

How the results depend on the processing

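Of 80 values under alternative settings, 69 stayed within a set margin of the reported value. For a count or length the margin was 1.5 times. For a percent it was a 95% exact binomial interval with the number of stretches as its size. Shares of length are not counts of stretches, and stretches are not replicates. This margin is therefore a yardstick and measures no error. With a minimum length of 100 kb, 156 stretches with a median of 512 kb remained, and with 10 kb the median was 268 kb, because short stretches were dropped. The median was 38 kb with bases in at least 1 lamin B1 list. On the autosomes alone LC3 replicate 2 held 74.8% and bridged gaps made up 20.0%. With 1 lamin B1 list left out in turn, the median length was 46 kb (without replicate 1) to 55 kb (without replicate 2), and the share held by LC3 replicate 2 was 73.9% (without replicate 2) to 80.7% (without replicate 1). The total was 106.2 Mb on the autosomes and at most 172 Mb in any setting, and the share in whole domains ranged from 40.8% to 46.3%. Assigning forms by the bases a whole LC3 domain shares gave the same values by construction. The shares near chromosome ends, with their alternatives, were added after seeing the data: with ends of 2 Mb the share was 25.8% for LC3 replicate 1, and with ends of 10 Mb it was 65.7% for replicate 1 and 7.96% for replicate 2. Leaving out an LC3 list gives no value, since the stretches are defined by both. Genes per Mb and GC content were not run. No paired analysis was possible because no result comes from a test. Read depth is unknown, so a domain missing from a list may be one the reads could not show.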

Other observations

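The mirror image, sequence in both LC3 lists and 1 lamin B1 list, was shorter and more broken up. It made 566 stretches over 95.9 Mb with a median of 24 kb, against 334 stretches over 138 Mb with a median of 76.5 kb for the stretches described above. Stretches of at least 1 Mb carried 36.1% of its length and 64.7% of theirs.

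Few discordant stretches lay within 100 kb of the next one. The median gap between neighbours was 3625 kb, and 4 of 311 gaps were under 100 kb. These gaps were not compared with those of other stretches.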
